A study of Danio rerio with 30 samples.

Results

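Proteins that fold other proteins, the molecular chaperones and folding enzymes, were examined along the intestine of the adult zebrafish. They were the spots whose gene symbol begins with hsp, dnaj, fkbp, pdia, ppi and a letter or cct and a digit, or is calr, calr3a, calr3b or canx, without pdia2, a pancreatic disulfide isomerase. By this rule 117 of the 23232 spots on the array, from 93 genes, belonged to the group. By their known location 35 spots (26 genes) encode proteins of the endoplasmic reticulum (ER), 71 (57 genes) proteins of the cytosol or nucleus and 11 (10 genes) mitochondrial proteins. The spots were chosen by symbol, though earlier results of these data were known when the group was chosen.

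Chaperones bind unfolded stretches of protein and release them in cycles that consume ATP. Hsp70 proteins work with J proteins (dnaj), which deliver clients and trigger ATP hydrolysis, Hsp90 acts later on clients that are nearly folded, and the chaperonins, CCT in the cytosol and Hsp60 with Hsp10 in mitochondria, enclose a client in a chamber. In the ER, calnexin and calreticulin hold glycoproteins by their sugars, protein disulfide isomerases (pdia) form and reshuffle disulfide bonds, and cyclophilins (ppi) and FK506-binding proteins (fkbp) turn the peptide bond before proline. Tissues that secrete much protein, such as the exocrine pancreas and the mucus-secreting cells of the gut, are known to be rich in ER chaperones.

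The study asked how the gut of this fish, which has no stomach, is organized from its front to its rear end. Each array compared RNA of 1 of 7 consecutive segments, labelled with Cy5, with RNA of whole fish, labelled with Cy3. The rostral intestinal bulb was cut into S1 and S2, the mid-intestine into S3 and S4, and the caudal intestine into S5 to S7. All were from wild-type male adults kept at 27 °C, and the same segment of several fish was pooled for each replicate. The whole-fish reference mixed 9 parts male with 1 part female RNA of wild-type fish. Of the 30 arrays, S5 had 4, S6 and S7 had 3 apiece and each of the more rostral segments had 5, and replicates were separate pools. The values are log2 ratios of the segment to the whole fish, so that 1 is a doubling and 0 an equal level. The dyes were never exchanged, so a difference between the dyes is part of every ratio to the whole fish. The segments hold many cell types, and fewer cells of a type cannot be told apart from less RNA per cell. Symbols were those of the array's design, brought up to date, and spots were tested where Cy5 or Cy3 stood above the local background on 3 or more arrays of some segment. This held for 109 of the 117 spots within S1 to S5 and for 113 over all segments.

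The arrays fell into sets. On the 24 arrays of S1 to S5, between 71 and 101 of the 117 spots had a Cy5 signal above background, against 30 to 110 on the S6 arrays and 15 to 52 on those of S7. The median log2 ratio of 15 enterocyte marker spots averaged between 1.89 and 2.53 in S1 to S5, but -0.11 in S6 and -0.22 in S7, so the absorptive cells of the gut were not visible in the ratios of the libraries labelled S6 and S7. In contrast, the median over exocrine pancreas marker spots averaged 1.34 in S6 and 1.92 in S7, beside -0.02 to 1.53 in S1 to S5. The Cy3 signals, which should hold the same reference, correlated with a mean r of 0.14 between the S6 and S7 arrays and those of S1 to S5. The mean r of Cy3 was 0.92 within S1 to S5 and 0.64 within the S6 and S7 arrays. The log2 ratios correlated with a mean r of 0.21 within the S6 and S7 arrays and of 0.87 within S1 to S5. S6 and S7 are therefore treated apart, their values describe the libraries as labelled, and whether their labels or their order of spots are right was not tested. Within S1 to S5, replicate 3 of S5 stood apart in its markers of skeletal muscle, with a median of -0.54 where the lowest S5 array had -3.94. Spots were small on 7 of the 24 arrays, 2 of S1, 4 of S2 and 1 of S3, and large on the other 17, so spot size and position along the gut were partly confounded.

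Most chaperone spots lay below the whole fish in S1 to S5. Of the 109 spots tested, 31 were higher and 62 lower than the whole fish (limma, Benjamini-Hochberg adjusted p under 0.05), with a median log2 ratio of -0.23 beside 0.01 for all 19479 spots tested. Among all spots 86.3% were called, 43.7% higher and 42.6% lower. These shares also stand beside the counts by family below, and no family was tested against them. The filter took a spot seen in either dye. A spot seen in Cy3 alone thus leaned lower, and one seen in Cy5 alone higher, by the filter itself. Such spots were not separated in these counts. ER spots had 11 higher and 16 lower of 32 with a median of -0.17, mitochondrial spots 2 higher and 7 lower of 11 with a median of -0.14, and cytosolic spots 18 higher and 39 lower of 66 with a median of -0.25. The ratios of at least 2-fold were fewer, 6 higher and 16 lower, where 8.27% of all spots were that much higher and 13% that much lower. On the authors' own log2 values, whose median over all spots was -0.13, the split was 37 higher and 52 lower. The shares of all spots on those values are not given here, so this split does not set the members apart.

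**Figure D1:**
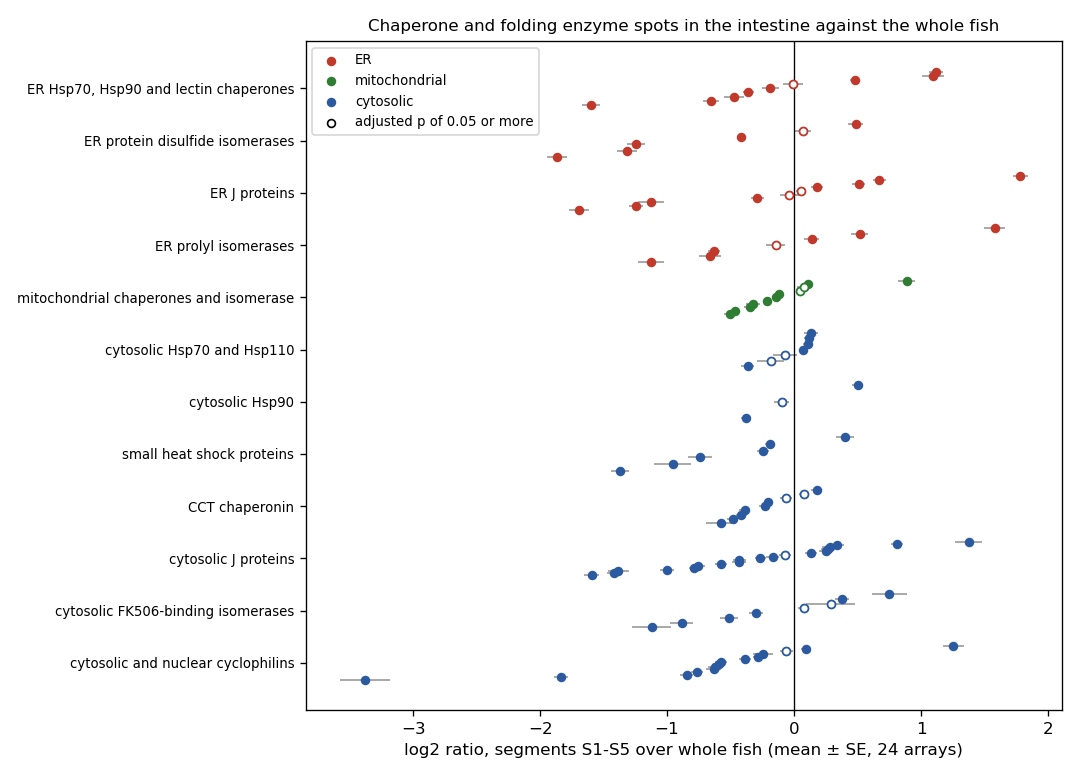
Mean log2 ratio of each tested chaperone and folding enzyme spot in S1 to S5 over the whole fish (horizontal axis, log2 units, bars ± SE of the fit, 24 arrays), with spots grouped by role down the page, hspbap1 and hspbp1 with the family they bind, and coloured by compartment. Filled points passed the test. The cyclophilins, with a median of -0.58, and the disulfide isomerases, with a median of -0.83, lie mainly left of 0, while the spots beyond 1 belong to dnajc3b, fkbp11, dnaja1, ppiaa and calr3b.

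Among the large ER chaperones, hspa5 (BiP), the main Hsp70 of the ER, was far below the whole fish. Its log2 ratio ran from -2.36 over a median of -1.58 to -0.87 on the 24 arrays of S1 to S5, none of which reached 0, and its mean was -1.60 (SE 0.07, adjusted p = 7.3e-16). hsp90b1 (GRP94), the Hsp90 of the ER, ranged between -1.47 and 0.43 with a median of -0.44, and only 3 arrays were above 0 (mean -0.47, adjusted p = 6.7e-06). The calreticulins, soluble lectin chaperones that store calcium, did not move as one. calr had a mean of -0.65 on its brighter spot, between -1.46 and 0.05, while its second spot, at -0.01, did not pass the test. calr3b was on the other side, with means of 1.12 and 1.09 on its 2 tested spots, and the first of these lay above 0 on all 24 arrays, between 0.64 and 1.82. The 3 spots of canx, calnexin, averaged 0.48, -0.36 and -0.19.

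Protein disulfide isomerases were mostly low, 4 lower and 1 higher of 6 tested spots. pdia4 (ERp72) had the lowest mean of the ER spots, from -2.69 over a median of -1.95 to -1.06, below 0 on every array (mean -1.87, SE 0.08, adjusted p = 1.9e-16). The 2 spots of pdia7 averaged -1.31 and -1.25, with Cy5 above background on 6 and 18 of 24 arrays, and pdia6 (P5), which also binds BiP, averaged -0.42 between -0.64 and -0.14. In contrast pdia3 (ERp57), the isomerase that works with calnexin and calreticulin on glycoproteins, was higher than the whole fish, with a range of -0.16 to 0.96 around a median of 0.49 (mean 0.48, adjusted p = 5.3e-08). pdia5 at 0.07 did not pass the test.

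The J proteins of the ER had 4 higher and 4 lower of 10 spots, close to the 43.7% and 42.6% of all spots. Those inside the ER bring clients to BiP, while those of its membrane can turn their J domain to the cytosol. dnajc3b, a paralog of the BiP partner p58IPK, had the highest mean of the 109 spots, between 1.32 and 2.43 with a median of 1.75 and with all 24 arrays above 0 (mean 1.78, SE 0.06, adjusted p = 2.4e-18). Its Cy3 reference signal was above background on only 13 of these arrays, so the size of this ratio is uncertain. dnajb11 (ERdj3), another partner of BiP, was above 0 on all arrays too, between 0.13 and 1.17 (mean 0.67). dnajc18 and dnajb12a, both anchored in the ER membrane with the J domain in the cytosol, averaged -1.70 and -1.12, and dnajc1 averaged -1.24 on one spot and -0.29 on another. The prolyl isomerases of the ER had 3 higher and 3 lower of 7, also close to those shares. fkbp11, an FK506-binding protein of secretory cells, lay between 0.86 and 2.38 around a median of 1.57 (mean 1.58, adjusted p = 1.4e-14), whereas fkbp10b, which takes part in collagen folding, was between -2.20 and -0.24 (mean -1.13, adjusted p = 3.8e-10), with only 5 of 24 Cy5 signals above background. ppib, cyclophilin B, averaged 0.52 on one spot and -0.15, not called, on the brighter one.

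Ratios of the mitochondrial chaperones were closer to 0. hspd1 (Hsp60) averaged -0.51 and -0.35 on its 2 spots, and its lid hspe1 (Hsp10) averaged 0.11, between -0.51 and 0.64, and lost its call without S5 replicate 5 (adjusted p = 0.0521). hspa9 (mortalin), the mitochondrial Hsp70, averaged 0.08 and did not pass the test. dnajc15, a J protein of the import motor, averaged -0.46 with no array above 0, and ppifa, a cyclophilin of the matrix, averaged -0.33. dnajc11a, a J protein associated with cristae organization, was the exception at 0.89, between 0.20 and 1.40 (SE 0.07, adjusted p = 1.2e-11). On the authors' values hspd1 lost its call at 0.07 for the first of these spots, and dnaja3a, a J protein of hspa9, had 0.02 in place of -0.21.

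Cytosolic Hsp70 and Hsp90 were near the level of the whole fish. The constitutive Hsp70, hspa8, averaged -0.36 on its brighter spot, between -0.79 and 0.10, and 0.07 on the dimmer, where 9 of 24 Cy5 signals were above background and the call was lost without S5 replicate 5 (adjusted p = 0.0506). Both Hsp110-type spots of hspa4b averaged 0.12 and 0.11. The spot with the symbol hsp70, which cannot be assigned among near-identical heat-inducible copies, averaged -0.19 between -1.07 and 0.99 and did not pass the test. hsp90aa1.1, the Hsp90 known for its role in muscle, averaged -0.10 and did not pass either. hsp90ab1, the constitutive Hsp90, was 0.50 on one spot, above 0 on all 24 arrays, and -0.38 on its brighter spot, where 14 Cy5 and 5 Cy3 signals were saturated. The negative means of the bright hspa8 and hsp90ab1 spots turned positive under median centring in place of loess (0.19 and 0.28) and on the authors' values (0.34 and 0.43), so their direction against the whole fish is not settled.

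Small heat shock proteins, which hold unfolding proteins in a soluble state and are abundant in muscle, were lower on 4 of 5 spots. hspb7, known for its high level in heart and muscle, averaged -0.74 with 8 of 24 Cy5 signals above background. hspbap1, not itself a small heat shock protein but a partner of Hsp27, was between -2.02 and -0.66 (mean -1.37, adjusted p = 1.6e-14), with 9 of 24 above background. hspb1 (Hsp27) was closer to 0 with a mean of -0.19, between -0.58 and 0.18, and 2 arrays above 0. Of 25 marker spots of skeletal muscle, 19 were lower and 5 higher than the whole fish, with a median of -3.19, and their part in these ratios was not tested.

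The cytosolic chaperonin CCT, which folds actin and tubulin, was lower on 6 of 9 spots and higher on 1, all by less than 2-fold. cct2 averaged 0.18, between -0.26 and 0.52, with 9 of 24 Cy5 signals above background. cct7 averaged -0.39 and cct6a -0.41, with no array above 0 in either. The 3 tested spots of cct5 averaged -0.48, -0.58 and -0.20, and the brightest had 20 saturated Cy5 signals.

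Cytosolic J proteins had 7 higher and 11 lower of 19 spots. dnaja1, an Hsp70 partner that carries a farnesyl group, was above 0 on all 24 arrays between 0.09 and 2.29 (mean 1.38, adjusted p = 1.4e-11). It had Cy3 above background on 17 of them. Its relatives dnaja2a and dnaja2b were below 0 on all arrays, with means of -0.57 and -0.79. dnajb1b, a heat-inducible J protein (Hsp40), was between -2.34 and -0.33 (mean -1.38), and dnajb6b, which keeps polyglutamine proteins from aggregating, was between -1.71 and -0.53 with a median of -0.95. The cysteine string proteins, J proteins of secretory vesicles best known at synapses, went both ways. dnajc5aa averaged -1.41 and dnajc5ga -1.59, both below 0 on all arrays, while dnajc5gb averaged 0.81, above 0 on all arrays. The Cy3 signal of dnajc5gb was above background on only 10 of 24 arrays, so the size of its ratio is uncertain.

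Of the cytosolic FK506-binding isomerases, 2 were higher and 4 lower of 8. The lower ones include fkbp1ab, with Cy5 above background on 2 of 24 arrays and Cy3 on 16, and fkbp6. fkbp5, an Hsp90 partner that is induced by glucocorticoids, lay between -0.51 and 2.08 (mean 0.75, adjusted p = 3.0e-05), and fkbp1aa (FKBP12) averaged 0.38. fkbp4, another Hsp90 partner, averaged -0.51, and fkbp6, known from the germ line, had -1.12 with a Cy5 signal above background on none of 24 arrays and a Cy3 signal above it on 9, so this value is not a measured fold. Cyclophilins of cytosol and nucleus were mostly low, with 11 lower and 2 higher of 14 spots and a median of -0.58. ppil2, a nuclear cyclophilin with a U-box, was between -2.22 and -1.21 (mean -1.83, SE 0.05, adjusted p = 3.5e-19). The spliceosomal cyclophilins ppih, ppil1 and ppig averaged -0.84, -0.62 and -0.59 on their brighter spots. ppiaa, cyclophilin A, could not be read: one spot averaged 1.25 and the other -3.38, and the Cy3 signal of the second was saturated on 24 of 24 arrays.

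Of the 18 genes with several tested spots, 10 had all spots on the same side of 0 and 5 (canx, hsp90ab1, hspa8, hspb8 and ppiaa) had spots called on opposite sides. For these 5 the direction depends on the spot. hspb8, a small heat shock protein of muscle, had -0.95 on one spot, from -3.44 to 0.41, and 0.40 on another, from -0.23 to 1.08.

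Along S1 to S5 few chaperones changed. A slope on segment number passed the test for 5 of 109 spots, 2 higher and 3 lower toward the rear, where 6.73% of all spots were called, 3.29% higher and 3.44% lower. Both that rose are ER chaperones (of 32 ER spots), all 3 that fell are mitochondrial (of 11), and of 66 cytosolic spots none passed. The number over all members was thus not above the background, and no difference between the compartments was tested. The median slope was 0.03 log2 units per segment over ER spots, of which 23 had a slope above 0, -0.07 over mitochondrial spots, of which 9 had one below 0, -0.01 over cytosolic spots and -0.01 over all spots. The counts above or below 0 are not set beside that of all spots here, so they do not show a difference between compartments.

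**Figure D2:**
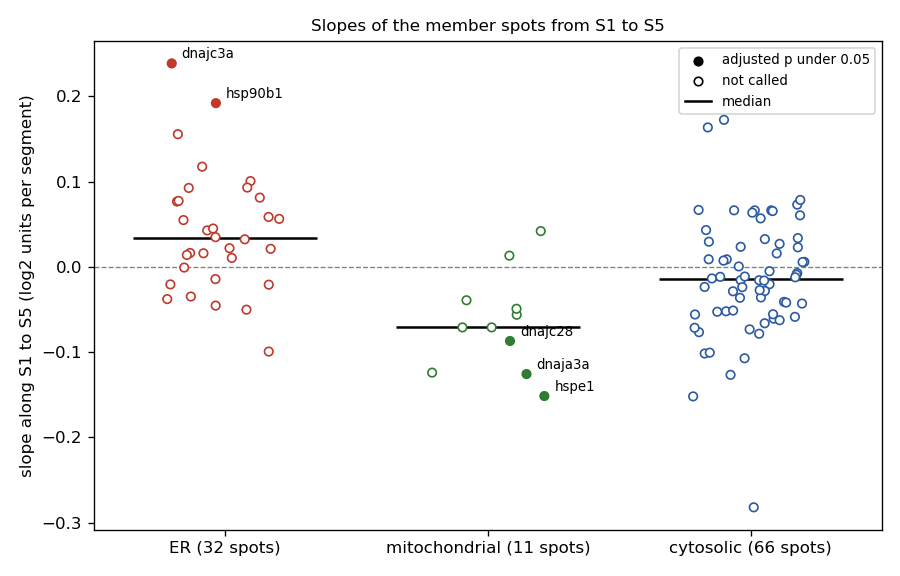
Slope of each tested spot from S1 to S5 (vertical axis, log2 units per segment, from the segment means of 24 arrays) for 32 ER, 11 mitochondrial and 66 cytosolic spots, with the median as a line. Filled points passed the test: dnajc3a at 0.24 and hsp90b1 at 0.19 in the ER, and hspe1 at -0.15, dnaja3a at -0.13 and dnajc28 at -0.09 in mitochondria.

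hsp90b1 (GRP94) had -0.99, -0.78, -1.14, -0.21 and -0.98 on the S1 arrays, -0.37, -0.47, -0.46, -1.43 and -0.46 in S2, -0.12, -1.47, -0.46, -0.42 and -0.60 in S3, 0.19, -0.18, -0.28, -0.50 and -0.37 in S4, and -0.34, 0.04, 0.43 and -0.39 in S5. In S1, 4 of the 5 arrays were below all arrays of S4 and S5, and the segments otherwise overlapped. Its slope was 0.19 per segment (SE 0.06, adjusted p = 0.0426 by limma). The call was lost when any of 12 of the 24 arrays was left out, with an adjusted p of up to 0.123 and a slope of 0.16 without S5 replicate 3, and when spot size entered as a block (0.15, adjusted p = 0.227). It was also lost with the replicate number as a block (0.19, adjusted p = 0.0693), with all 30 arrays in the fit (adjusted p = 0.0608), under median centring (adjusted p = 0.152) and on the authors' values (adjusted p = 0.158). Within the 17 arrays of large spots the slope was 0.20 (adjusted p = 0.0421).

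dnajc3a (p58IPK), a J protein partner of BiP that is induced when unfolded protein builds up, was measured by 2 spots. On the one that rose, the values were -0.44, -0.07, -0.51, -0.79 and -0.14 in S1, 0.24, -0.31, -0.48, 0.25 and -0.57 in S2, 0.07, -0.86, -0.23, -0.33 and -0.17 in S3, 0.26, 0.63, -0.30, -0.24 and -0.61 in S4, and 1.19, 0.88, 0.61 and 0.28 in S5. All S5 arrays were above every array of S1 to S4 but for 1 array of S4, and the segment means were -0.39, -0.18, -0.30, -0.05 and 0.74. The slope was 0.24 per segment (SE 0.05, adjusted p = 0.00792), with 13 of 24 Cy5 signals above background, and it lost its call with spot size as a block (0.17, adjusted p = 0.118) and within the large-spot arrays (0.19, adjusted p = 0.127). The other spot of dnajc3a had a slope of 0.09 and did not pass (adjusted p = 0.16).

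hspa5 (BiP) had segment means of -1.73, -1.71, -2.05, -1.40 and -1.11 from S1 to S5, with SDs of 0.53, 0.29, 0.36, 0.30 and 0.19. Its slope of 0.16 missed the threshold (adjusted p = 0.073). Other genes of the ER folding route, taken from lists of genes outside the group, had few slope calls too. Among all spots 3.29% rose and 3.44% fell, and no list was tested against these shares. Of 24 spots for ER oxidation, glucosidases and further helpers, 3 rose and 2 fell. All 3 that rose were spots of hyou1, the Hsp110-type partner of BiP, with slopes of 0.14, 0.20 and 0.13, while its other 2 spots had 0.23 and 0.08 and did not pass. Those that fell were agr2, a disulfide isomerase of mucus cells, at -0.11, and sdf2 at -0.14. Of 36 spots for translocation into the ER and glycosylation, 2 rose, both of the signal peptidase subunit spcs2 at 0.13, and of 25 for ER stress and degradation 1 rose, selenos, a degradation factor, at 0.12.

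Markers of the exocrine pancreas rose toward the rear. Of their 17 tested spots 16 rose from S1 to S5, beside 3.29% of all spots. Their median slope was 0.41, and the remaining spot, amy2al1, missed the threshold (adjusted p = 0.0564). The median of an array over the pancreatic spots averaged -0.02, 0.18, 0.39, 1.51 and 1.53 from S1 to S5, ranging within -0.37 to 0.27 in S1 and 1.25 to 2.01 in S5. The trypsin gene prss1 had a slope of 0.39 and the elastase gene ela2 one of 0.52. The median over the ER chaperones averaged -0.20, -0.32, -0.24, -0.15 and -0.07 over the same segments, with SDs of 0.10, 0.16, 0.16, 0.13 and 0.10. In S6 and S7 the ER medians averaged -0.04 and -0.16, and the pancreatic ones 1.34 and 1.92. Not all secretory tissues rose. The median over goblet and mucus cell markers averaged 1.69, 1.26, 1.535, 1.42 and 1.53 from S1 to S5. Over liver markers it averaged 0.19, -1.04, -1.92, -1.04 and -0.95. The part of pancreatic and other secretory tissue in the ER values was not tested.

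**Figure D3:**
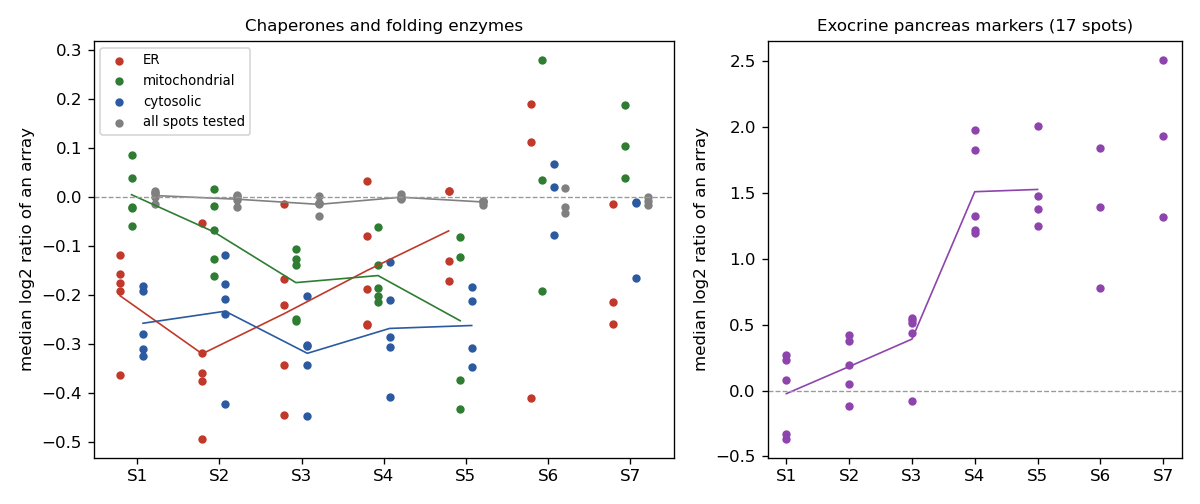
Median log2 ratio of each array by segment, for ER, mitochondrial and cytosolic chaperone spots and all tested spots (left) and for 17 exocrine pancreas marker spots (right), with lines through the segment means of S1 to S5. The ER medians ended at -0.07 in S5 and the mitochondrial ones at -0.25, the cytosolic ones stayed between -0.32 and -0.23, and the pancreatic ones stood at 1.51 in S4 and 1.53 in S5.

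In mitochondria, hspe1 (Hsp10) had 0.20, 0.60, 0.29, 0.29 and 0.49 in S1, -0.15, 0.20, 0.14, 0.36 and 0.64 in S2, 0.01, 0.54, 0.14, 0.30 and 0.24 in S3, -0.07, -0.10, -0.21, 0.05 and -0.13 in S4, and -0.19, -0.15, -0.51 and -0.03 in S5. All S1 arrays lay above all arrays of S4 and S5. The slope was -0.15 per segment (SE 0.03, adjusted p = 0.00339), and with spot size as a block it was -0.11 (adjusted p = 0.0739). Its call was also lost within the large-spot arrays (adjusted p = 0.0888), with all 30 arrays in the fit (0.139) and under median centring (0.156). dnaja3a had -0.22, 0.06, -0.06, 0.18 and 0.14 in S1, -0.16, 0.10, -0.19, 0.26 and -0.27 in S2, -0.10, -0.41, -0.19, -0.27 and -0.28 in S3, -0.22, -0.34, -0.29, -0.18 and -0.32 in S4, and -0.39, -0.76, -0.37 and -0.48 in S5. All S5 arrays were below all S1, S2 and S4 arrays and below all but 1 of S3. Its slope of -0.13 (SE 0.03, adjusted p = 0.00395) kept its call with the block for spot size (-0.11, adjusted p = 0.0452) and lost it within the large-spot arrays (-0.10, adjusted p = 0.0879). The call was also lost with all 30 arrays in the fit (adjusted p = 0.0523) and under median centring (0.157).

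dnajc28 had the smallest of these slopes, -0.09 (SE 0.02, adjusted p = 0.0322), on segment means of 0.10, -0.07, -0.14, -0.20 and -0.27. Its call was lost without any of 6 single arrays, with an adjusted p of up to 0.108 without S5 replicate 2. It was also lost with all 30 arrays in the fit (adjusted p = 0.162), under median centring (0.26) and without background correction (0.072). The large-spot arrays (0.1025) and the authors' values (0.139) lost it too. hspa9 (mortalin) had means of 0.29, 0.22, 0.13, -0.03 and -0.20 from S1 to S5 and a slope of -0.12 that missed the threshold (adjusted p = 0.058). The remaining pair of hspd1 spots, the ring that hspe1 closes, had slopes of 0.01 and -0.05 that were not called. In a list of mitochondrial import and protease genes, 2 of 15 spots fell, the import subunits timm17a at -0.13 and tomm22 at -0.14. Among all spots 3.44% fell, and the list was not tested against this share. Of the 15, 13 had a slope below 0, with a median of -0.06, a count not set beside that of all spots. The median over the mitochondrial chaperones averaged 0.00, -0.07, -0.18, -0.16 and -0.25 from S1 to S5. Under the block for spot size 2 of the 109 spots had a slope call, both of them mitochondrial, and within the large-spot arrays only hsp90b1 had one.

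**Figure D4:**
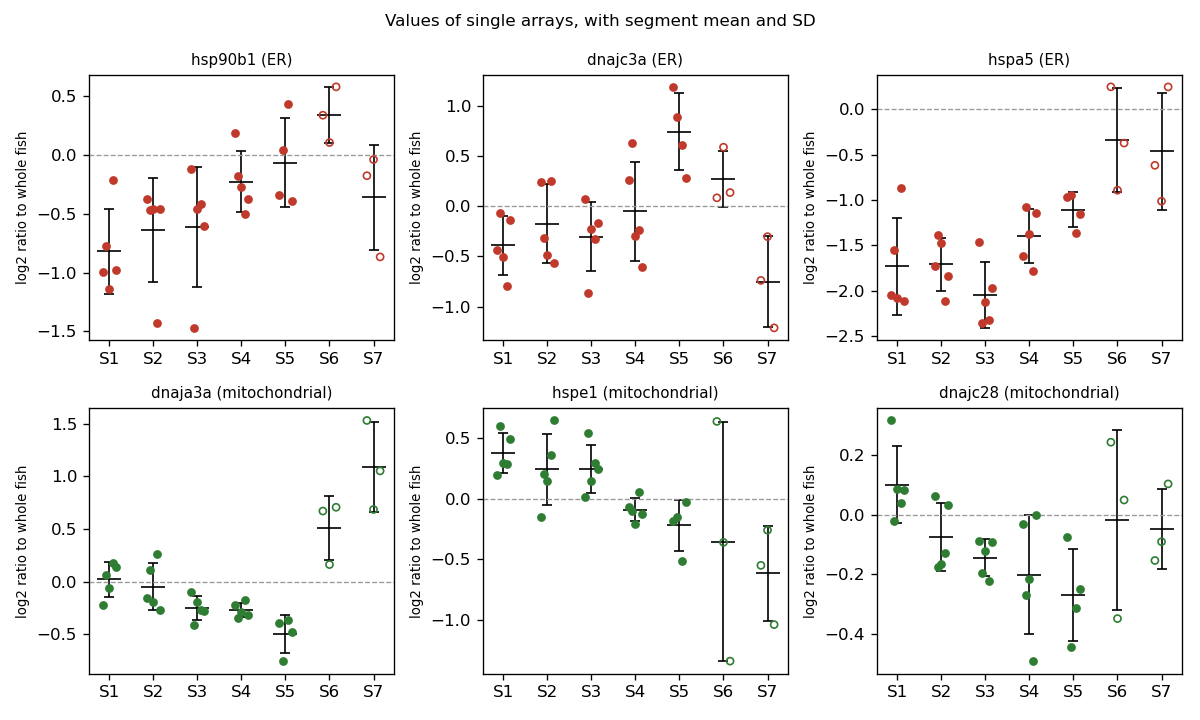
Log2 ratio to the whole fish of single arrays (points), with the mean and SD of each segment, for the ER chaperones hsp90b1, dnajc3a and hspa5 and the mitochondrial hspe1, dnaja3a and dnajc28. The S1 and S5 means are -0.39 and 0.74 for dnajc3a and 0.02 and -0.50 for dnaja3a, and the slope of hspa5 missed the threshold. S6 and S7 arrays are open points.

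Set against S1 to S4, S5 differed in 3 of 109 spots, 1 higher and 2 lower, where 5.53% of all spots were called, 2.71% higher and 2.82% lower. dnajc3a was higher by 0.97 (SE 0.20, adjusted p = 0.004), with 0.28 to 1.19 in S5 and -0.86 to 0.63 in S1 to S4. On Cy5 alone its difference was 0.41 and was not called (adjusted p = 0.208 by limma). dnaja3a was lower in S5, with a difference of -0.36 (adjusted p = 0.0297), a call lost without S5 replicate 2 or 5. It was also lost with the replicate block (adjusted p = 0.067), the spot size block (0.0771), large-spot arrays (0.0601) and all 30 arrays in the fit (0.198). Scale normalization (0.105), no background correction (0.0539), median centring (0.533) and the authors' values (0.308) lost it too. On Cy5 alone the difference of dnaja3a was 0.057. hspe1 was lower too, with a difference of -0.41 (adjusted p = 0.0386), a call lost without any of 7 single arrays: S1 replicate 5, S2, S3 or S4 replicate 4, or S5 replicate 1, 2 or 3. Without S5 replicate 3 the difference was -0.31 (adjusted p = 0.183), and without S5 replicate 2 it was -0.43 (adjusted p = 0.0917). The hspe1 call was also lost with all 30 arrays in the fit (adjusted p = 0.401), the spot size block (0.124) and large-spot arrays (0.139). Scale normalization (0.0598), no background correction (0.09), median centring (0.507) and the authors' values (0.237) lost it too. On Cy5 alone the difference of hspe1 was -0.033. The same 3 spots were those that differed anywhere among S1 to S5 by the F test, in which 6.17% of all spots were called, while the count was 0 within the large-spot arrays.

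In the libraries labelled S6 and S7 large ratios of the chaperones were fewer than in S1 to S5. The median absolute log2 ratio of the members differed less, 0.28 in S6 and 0.34 in S7 beside 0.38 to 0.43 in S1 to S5. A ratio of at least 2-fold in either direction occurred in 3.54% of the 113 spots in S6 and in 3.54% in S7, beside 17.7% to 20.4% in each of S1 to S5. Over all 21395 spots these shares were 2.28% in S6, 4.92% in S7 and 17.5% to 21.6% in S1 to S5. Against S1 to S5, S6 was higher in 34 spots and lower in 16 of 113, where 51.3% of all spots were called, 26.1% higher and 25.2% lower. S7 was higher in 34 and lower in 25, where 52.4% of all spots were called, 26.8% higher and 25.6% lower. The excess of higher spots depended on the processing: on the authors' values and on Cy5 alone, lower spots were the more numerous in both segments (counts below). Of the 50 called spots in S6 that also had a level in S1 to S5, 32 were higher in S6 and below the whole fish in S1 to S5, and 11 were lower in S6 and above it. In S7 these were 32 and 18 of 57. This split was not counted over all spots, whose ratios of at least 2-fold were also fewer in S6 and S7, so it does not set the chaperones apart.

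**Figure D5:**
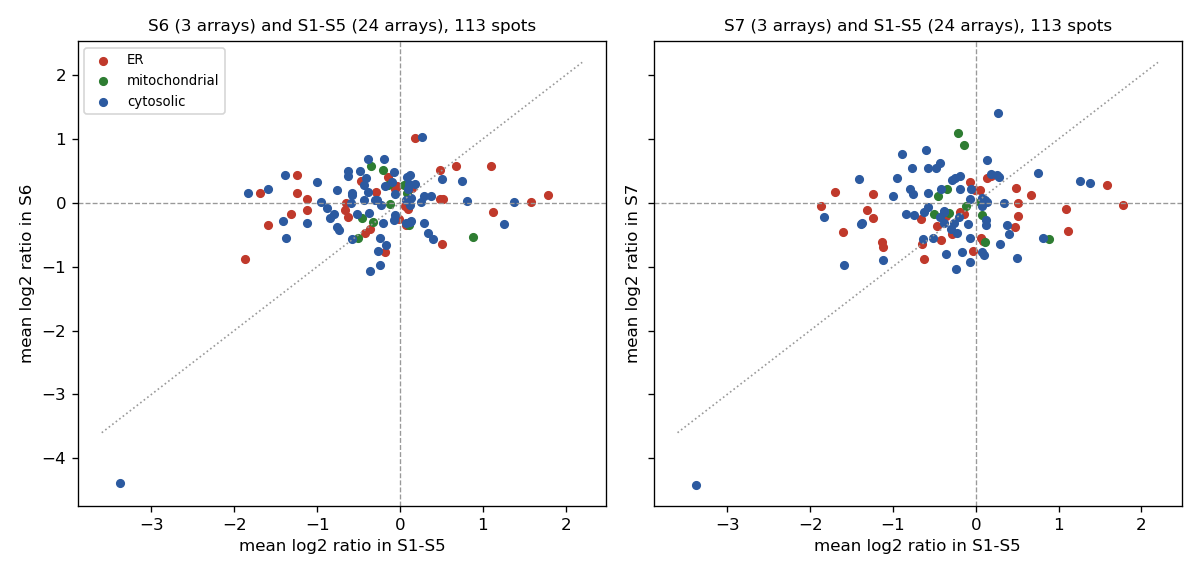
Mean log2 ratio of 113 chaperone and folding enzyme spots in S6 (left, vertical axis, 3 arrays) and S7 (right, 3 arrays) against the mean in S1 to S5 (horizontal axis, 24 arrays); the dotted line marks equal ratios. Points spread along the horizontal axis from -1.87 to 1.78, apart from 1 saturated ppiaa spot at -3.38, and spread less far along the vertical axis.

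Several of the largest differences were in genes far from 0 in S1 to S5. ppil2 had 0.20, 0.32 and -0.07 in S6 and 0.39, -0.23 and -0.80 in S7, against -2.22 to -1.21 in S1 to S5, so that S6 was higher by 1.98 (SE 0.19, adjusted p = 1.6e-09 by limma) and S7 by 1.62. The SE and p rest on a spread pooled over all 30 arrays, so they do not measure the spread among the 3 arrays of S6 or S7. dnajc18 was higher by 1.85 in S6 and 1.87 in S7, with values of 0.47, 0.33 and -0.32 in S6 and 0.00, -0.35 and 0.87 in S7. At the other end dnajc3b had 0.09, 0.07 and 0.23 in S6 and 0.26, -0.02 and -0.35 in S7, against 1.32 to 2.43 in S1 to S5 (difference -1.65 for S6 and -1.82 for S7). fkbp11 differed by -1.57 in S6 and -1.31 in S7, and the mitochondrial dnajc11a by -1.43 and -1.46. No array of S6 or S7 overlapped those of S1 to S5 in ppil2, dnajc3b or fkbp11.

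These differences in ratio were often not those of the Cy5 signal, the dye of the segment's own RNA. The Cy5 signal used here was rebuilt from the normalized ratio and the mean brightness of both dyes. It therefore also depends on Cy3 and is not a measure of the segment's RNA free of the reference. On the Cy5 signal alone 21 spots were higher and 58 lower in S6 than in S1 to S5, and 15 higher and 60 lower in S7. Of all spots, 35.6% were higher and 30% lower in S6 and 34.6% higher and 31.2% lower in S7 by this measure. For it, the mean brightness of both dyes had been brought to a common distribution over all arrays. Cy5 was above background on 14.9% to 41.9% of the spots of 5 of these 6 arrays and on 89.9% for S6 replicate 2, and the part of this in the counts was not tested. The ratios of hspa5 (BiP) were 0.25, -0.89 and -0.37 on the S6 arrays and -0.62, -1.01 and 0.25 on the S7 arrays. These were higher than in S1 to S5 by 1.26 and 1.14, whereas the difference in its Cy5 signal alone was -3.37 for S6 (adjusted p = 3.4e-11) and -2.25 for S7. pdia4 had a ratio higher by 1.82 in S7, where no Cy5 signal was above background. With a floor set on the dim side, that signal was 4.03-fold lower in S7 than in S1 to S5, with mean log2 signals of 8.72 and 11.4. The floor of an array was its lowest signal above background, or the spot's own signal if higher. A spot not above its local background can exceed that lowest signal, so such folds are approximate and not strict bounds. dnajc1 went the same way, with ratios higher by 1.40 in S6 and 1.38 in S7. Its Cy5 difference was -1.93 in S6, where 1 of 3 arrays was above background. In S7, where no array was, its Cy5 signal was 2.02-fold lower with the floor (mean log2 signals of 8.45 in S7 and 10.4 in S1 to S5).

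For other genes ratio and signal ran the same way. dnajc5aa, a cysteine string protein, had -0.11, -0.08 and -0.65 in S6 and 0.16, 0.47 and 0.49 in S7, against -1.87 to -0.84 in S1 to S5. The difference was 1.13 for S6 and 1.79 for S7 in the ratio and 1.23 and 2.14 in Cy5, and all 6 arrays had it above background. fkbp11 was lower in Cy5 too, with differences of -2.41 in S6 and -1.69 in S7, with 2 of 3 arrays above background in each. With the floor, the Cy5 signal of calr3b was 5.53-fold lower in S7 than in S1 to S5 on its dimmer spot. The mean log2 signals were 9.00 and 12.0, and the difference in ratio was -1.56. Over all 113 spots the Cy5 signal was above background on every S6 array for 21 and on every S7 array for 14, and on no S7 array for 53. In marker spots of skeletal muscle the median ratio was -0.24 in S6 and -0.56 in S7, against -3.49 to -2.73 as means of S1 to S5. The part of the reference signal, spot size and other tissues in the S6 and S7 ratios was not tested. The median spot area was 80 pixels on every S6 and S7 array. On the 7 small-spot arrays of S1 to S3 it was 120 pixels, and no array of S1 to S5 had 80. Spot size and labelled segment therefore cannot be told apart. Set against only those small-spot arrays of S1 to S3, 37 spots of S6 and 39 of S7 were called, beside 28.2% and 29.5% of all spots.

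S7 differed from S6 in 8 of 113 spots, 1 higher and 7 lower, where 8.41% of all spots were called, 3.73% higher and 4.68% lower. hspb2, a small heat shock protein of muscle, had 0.44, 0.28 and 0.43 in S7 and -0.31, -1.37 and -1.25 in S6 (difference 1.36, adjusted p = 0.00159 by limma), but its Cy5 signal was above background on no S7 array and on 2 of 3 S6 arrays. Its normalized log2 Cy5 signals were 9.02, 9.78 and 9.49 in S7, against 11.5, 11.5 and 8.15 in S6, so the signal of S7 was below that of 2 of the 3 S6 arrays while the ratio was higher. hsp90ab1 on its dimmer spot had -1.11, 0.09 and -1.60 in S7 and 0.45, -0.25 and 0.93 in S6 (difference -1.25, adjusted p = 0.00985), and ppiab, a cyclophilin A whose Cy5 signal was above background on all 6 arrays, had -0.58, -0.94 and -0.94 in S7 and 0.39, 0.82 and -0.55 in S6 (difference -1.04). For that hsp90ab1 spot, Cy5 was above background on all S6 arrays but on only 1 of 3 S7 arrays. The count was 14 without S7 replicate 3, 17 without S7 replicate 4 and 3 without S7 replicate 5, and hsp90ab1 lost its call without S7 replicate 5 (adjusted p = 0.091). Over all 7 segments, 0.1 was the threshold of the F test after Bonferroni correction, which called 15 of 113 spots, beside 14.2% of all spots.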

How the data were processed

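RNA of each segment (Cy5) and of whole fish (Cy3) was hybridized to spotted oligonucleotide arrays. Intensity values per spot and local background were deposited by the authors without normalization. The authors' log2 values, in the same files, equal those the series lists within 0.01 for 100% of values and served as an alternative.

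In limma 3.58.1 (R 4.3.3, data.table version 1.17.8) background was corrected by normexp with an offset of 50 and ratios were normalized by loess within arrays, with 245 control spots left out. A signal above background exceeded the local median by over 2 SD, and saturation began at 65000. Segment means were fitted to 24 arrays (S1 to S5; 19479 spots) or 30 (S6, S7; 21395 spots), with Benjamini-Hochberg adjustment over all spots. Of 11724 spots with a symbol, 3568 were current in the GRCz12tu annotation and 8046 were updated through a synonym.

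Members, lists and tests were chosen with earlier results of these data known. Named spots are a core set, the up to 8 highest and lowest called spots of a comparison and those whose spots disagree; others were named after their values were seen. Alternatives were other background corrections, normalizations and filters, the authors' values, Cy5 alone, a replicate block, a plain ANOVA and leaving out each array. Cy5 alone was rebuilt from the normalized ratio and the mean brightness of both dyes, after Aquantile normalization of that brightness. Spot size was added after seeing the data.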

Additional observations from a re-analysis of the deposited data

Results flagged for a closer look

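In 6 of 115 groups of 4 or 5 arrays checked, 1 array stood far from the others, and chance flags about 1 in 20. hsp90b1 was -1.43 on S2 replicate 4, where the others were between -0.47 and -0.37. On S5 replicate 3, the array with high muscle markers, calr was -0.97 beside -0.26 to -0.21, and hspa8 was -0.79 beside -0.40 to -0.34. hspb1 was 0.12 on S4 replicate 5 beside -0.15 to -0.10, cct2 was 0.52 on S2 replicate 5 beside 0.04 to 0.12, and dnajb1b was -0.56 on S2 replicate 3 beside -1.60 to -1.35.

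The difference of S7 from S6 passed limma's test for 8 spots. hspb2 was higher in S7 by 1.36, though its Cy5 signal was above background on no S7 array and on 2 of 3 S6 arrays, and lower in S7 were dnajc24, with a difference of -0.78, cct7 (-0.83), ppih (-0.99), dnajc3a (-1.02), ppiab (-1.04), dnajc5ga (-1.19) and hsp90ab1 (-1.25). Of these, cct7, ppih, dnajc3a and dnajc5ga had Cy5 above background on no S7 array, so their differences are not measured folds. dnajc24 and hsp90ab1 had it on 1 of 3 S7 arrays, and cct7 and dnajc3a on 1 of 3 S6 arrays. The dnajc24 spot did not pass the filter within S1 to S5.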

How the results depend on the processing

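The call counts over the members depended on the processing as follows. Shares over all spots are not given beside them here, so they show how the calls varied and not whether members differed from all spots. For the slope along S1 to S5 (5 spots) the count was 1 with all 30 arrays in the fit, 3 under median centring, 1 within large-spot arrays, 8 under scale normalization and 2 with spot size as a block. For the difference among S1 to S5 (3 spots) it was 1 with all 30 arrays, 5 under median centring, 0 within large-spot arrays and 1 with the spot size block. For S5 against S1 to S4 (3 spots) it was 0 on Cy5 alone and 1 with all 30 arrays, scale normalization or the spot size block. S6 against S1 to S5 (50 spots) had 79 on Cy5 alone, 21 higher and 58 lower, 42 on the authors' values, 16 higher and 26 lower, and 58 without background correction, 45 higher and 13 lower. S7 against S1 to S5 (59 spots) had 75 on Cy5 alone, 15 higher and 60 lower, and 56 on the authors' values, 17 higher and 39 lower. Set against only the small-spot arrays of S1, S2 and S3 (2, 4 and 1 arrays), which is another comparison, S7 had 39. S7 against S6 (8 spots) had 35 on Cy5 alone, 0 without background correction and 1 on the authors' values. The F test over 7 segments (15 spots) had 42 on Cy5 alone, 23 without background correction and 62 by a plain one-way ANOVA with Benjamini-Hochberg adjustment, beside 10 with Bonferroni. Leaving out single arrays gave 90 to 95 calls against the whole fish, 3 to 7 for the slope, 1 to 5 among S1 to S5, 2 to 4 for S5, 46 to 59 for S6, 55 to 61 for S7, 3 to 17 for S7 against S6 and 11 to 18 for the F test over 7 segments. The causes were not tested.

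Replicate numbers were not used to pair the arrays in the main fits. Same-numbered arrays of S1 to S5 had a mean r of 0.05 between their deviations from the segment means, with 16 of 46 pairs above 0.1. Other pairs had a mean r of -0.01, with 40 of 184 above 0.1. Whether equal numbers mark the same fish cannot be told from these values. With the replicate block the counts were 94 against the whole fish, 4 for the slope, 2 among S1 to S5, 2 for S5, 51 for S6, 60 for S7, 8 for S7 against S6 and 13 over 7 segments.

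Of 118 calls of named spots, 27 of 68 changed direction on Cy5 alone. For S6 against S1 to S5 these gave calr -1.74, dnaja3a -2.40, dnajb1b -0.56, dnajb6b -0.27, dnajc1 -1.93, dnajc5ga -0.74, hsp90b1 -0.93, hspa5 -3.37, hspb1 -1.75, hspb8 -1.45, pdia4 -2.35, pdia7 -0.36 and ppig -0.52. For S7 they gave dnaja3a -1.22, dnajb1b -1.31, dnajc1 -1.94, dnajc11a 0.40, dnajc5ga -1.57, hspa5 -2.25, hspb1 -1.53, hspb8 -1.80, pdia4 -2.67, pdia7 -1.28, ppie -0.36 and 0.57, and ppig -0.18, and for S5 against S1 to S4 dnaja3a 0.057. Not all of these passed limma's test on Cy5. Those of dnajb1b, dnajb6b and pdia7 in S6, dnajc11a, ppie and ppig in S7 and dnaja3a in S5 did not (adjusted p of 0.0709 to 0.934). In S7 no Cy5 signal of dnajc1, dnajc5ga, hspb1, hspb8, pdia4, pdia7 or the second ppie spot was above background, and in S6 none of pdia7, so these values are not measured folds. With the floor on the dim side, Cy5 was 2.02-fold lower in S7 for dnajc1, 2.85-fold for dnajc5ga, 1.56-fold for hspb1, 1.65-fold for hspb8 and 4.03-fold for pdia4, with no such value for pdia7 and ppie. These folds are approximate and not strict bounds. Against the whole fish, hsp90ab1 (0.28) and hspa8 (0.19) turned under median centring, and on the authors' values hsp90ab1 (0.43), hspa8 (0.34 and -0.045), hspd1 (0.071) and dnaja3a (0.023), as did calr in S6 (-0.048). Of those on the authors' values, only hsp90ab1 and the 0.34 of hspa8 passed the test. Aquantile normalization leaves ratios as they are. Many members were near background in S6 and S7, which limits what their ratios can show.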
